A study of Mus musculus with 8 samples.

Results

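The miR-181 family comprises 6 mouse microRNA (miRNA) genes, Mir181a-1, Mir181b-1, Mir181a-2, Mir181b-2, Mir181c and Mir181d. They were chosen by name, by matching the coordinates of the counted features to RefSeq, and all 6 were present among the 2202 features of both deposited count tables. The small RNA came from splenic B cells of Ago2HA/HA mice, in which both copies of the Ago2 gene carry the HA epitope tag, and all 4 groups share that genotype. B cells were obtained by negative selection with a CD43 reagent. They were used at rest or after activation in vitro to proliferate, and small RNA libraries were made from the input and from the RNA recovered with AGO2 by anti-HA immunoprecipitation (IP). Each of the 4 groups (resting input, resting IP, proliferating input, proliferating IP) had 2 libraries. Age, sex and the activating agent are not given in the labels, nor do they say whether replicate libraries are from separate animals. The p-values below therefore rest on the spread between these libraries, estimated largely across features, and that spread may be technical. Cells lacking the tag yielded no RNA for a library, so the input is the only reference for an IP.

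miRNAs are cut from hairpin precursors, loaded into Argonaute proteins such as AGO2 and guided to target mRNAs mainly by the seed, bases 2 to 8 from the 5′ end. Each hairpin can give a mature strand from its 5′ arm (5p) and its 3′ arm (3p), of which usually the former is the main product in this family. miR-181a is known for its high level in developing thymocytes, where it raises the sensitivity of T cell receptor signalling, and for favouring the B lineage when forced into blood progenitors. miR-181b is known to restrain activation-induced deaminase, the enzyme of antibody class switching, in activated B cells.

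The mature sequences are shown because they set which members a read can be assigned to (RefSeq, GRCm38.p6, the assembly also called mm10, with the seed in capitals). The 5p strands share the seed ACAUUCA and are held by 6 genes in 4 forms.
miR-181a-5p, from Mir181a-1 and Mir181a-2: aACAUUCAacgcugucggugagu
miR-181b-5p, from Mir181b-1 and Mir181b-2: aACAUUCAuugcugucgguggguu
miR-181c-5p: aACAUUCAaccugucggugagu
miR-181d-5p: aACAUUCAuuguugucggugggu
No mature miRNA outside these 4, of 1679 in the table, had that seed. The 5p strands of Mir181a-1 and Mir181a-2 are identical, as are those of Mir181b-1 and Mir181b-2. miR-181c-5p is 1 edit (a base changed, added or lost) from miR-181a-5p, and miR-181d-5p is 2 edits from miR-181b-5p.

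The 3p strands are shown because they tell the paired copies apart.
miR-181a-1-3p: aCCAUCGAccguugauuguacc
miR-181a-2-3p: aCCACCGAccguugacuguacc
miR-181b-1-3p: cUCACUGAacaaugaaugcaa
miR-181b-2-3p: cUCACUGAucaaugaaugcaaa
miR-181c-3p: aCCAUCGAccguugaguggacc
miR-181d-3p: cCCACCGGgggaugaauguca
Each 3p strand belonged to 1 gene. miR-181a-1-3p and miR-181a-2-3p differ by 2 edits and in their seeds. miR-181b-1-3p and miR-181b-2-3p also differ by 2 edits but share a seed. Each count covers a whole hairpin, both arms together, so arms could not be separated, and how multi-mapping reads were handled is not given in the sources used here. How much of miR-181a-5p and miR-181b-5p entered the counts of Mir181a-1, Mir181a-2, Mir181b-1 and Mir181b-2, and from which copy, was therefore not known. Mir181c and Mir181d have 5p strands of their own.

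The 6 genes lie in 3 clusters of 2. Mir181a-1 (chromosome 1, 137966455 to 137966541, mm10, plus strand) and Mir181b-1 (137966639 to 137966718) are 97 bases apart and overlap no other RefSeq gene. Mir181a-2 (chromosome 2, 38852735 to 38852810, plus strand) and Mir181b-2 (38853830 to 38853918) are 1019 bases apart, within the spans of Nr6a1 and the long noncoding RNA gene Nr6a1os. Mir181c (chromosome 8, 84178873 to 84178961, minus strand) and Mir181d (84178716 to 84178787) are 85 bases apart and overlap no other RefSeq gene. No further counted feature lay within 10000 bases of a member.

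By the counts assigned to their hairpins, all members were low in these libraries. Reads of miR-181a-5p and miR-181b-5p, each shared by paired copies, may be missing from these counts, so levels of the mature miRNAs are not known. Together they gave 1270 counts in the 8 libraries, 785 of them from Mir181a-1, 197 from Mir181b-2, 123 from Mir181a-2, 96 from Mir181b-1, 51 from Mir181c and 18 from Mir181d. Library totals ran from 213418 to 1681148 counts, and 3 counts corresponded to between 1.78 and 14.1 CPM (counts per 1000000 counts) of a library's total. Of all counts, the resting inputs held 0.0237% from the family (exact 95% interval 0.0189 to 0.0293) and 0.0261% (0.0213 to 0.0317). The resting IPs held 0.0197% (0.0177 to 0.0220) and 0.0271% (0.0236 to 0.0310). The proliferating inputs held 0.0192% (0.0144 to 0.0251) and 0.0230% (0.0170 to 0.0304), and the proliferating IPs 0.0196% (0.0167 to 0.0229) and 0.0203% (0.0180 to 0.0229). These intervals cover counting error only. The shares of the resting and proliferating inputs did not overlap, with 0.0249% ± 0.00172 against 0.0211% ± 0.00267 (mean ± SD, n = 2), but 2 libraries against 2 cannot reach significance in an exact permutation test and none was made.

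**Figure D1:**
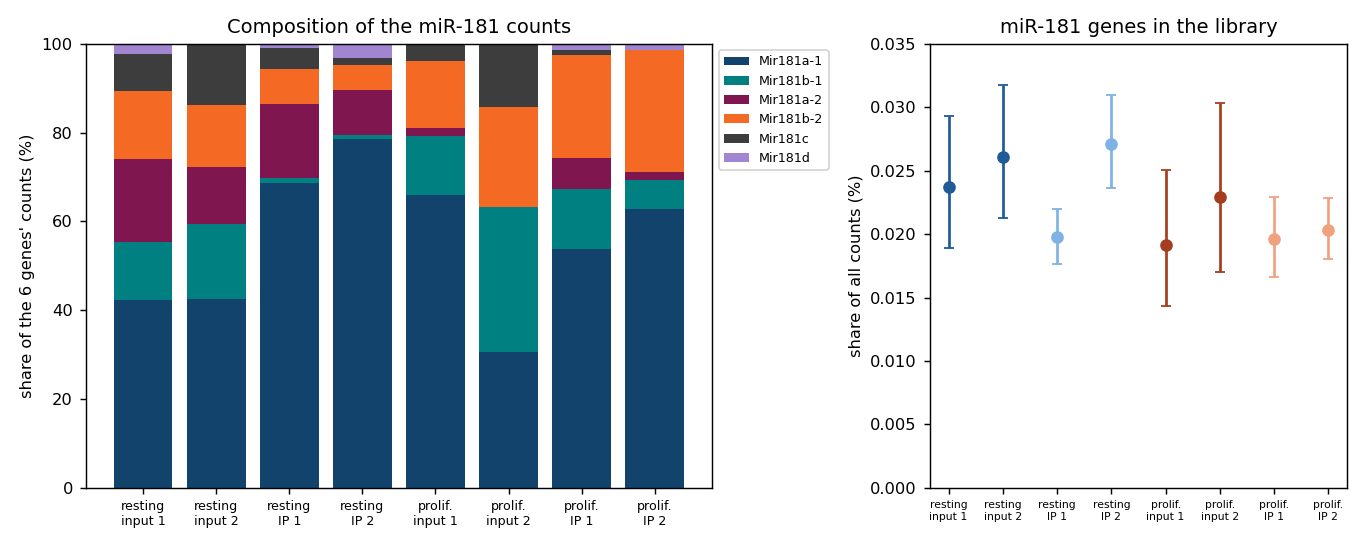
Left, share (%) of each gene in the counts of the 6 miR-181 genes in each library. Right, share (%) of the 6 genes in all counts of the library with exact 95% intervals; the shares run from 0.0192% to 0.0271% while the composition differs between groups.

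Mir181a-1 had the highest counted level of the members in every group by group mean. Levels between genes are compared as CPM per kilobase of feature, where CPM are scaled with TMM factors (edgeR's correction for library composition), and the order was the same without the length. In the resting input Mir181a-1 stood at 1186 ± 39.2 CPM per kilobase (SD, n = 2), followed by Mir181a-2 at 505 ± 120, Mir181b-1 at 453 ± 96.8, Mir181b-2 at 398 ± 16.0 and Mir181c at 303 ± 117. Neighbours from Mir181a-2 to Mir181c overlapped between libraries, whereas Mir181a-1 lay above and Mir181d, with 2 counts and 0, below all others. The resting IP had another order, with Mir181a-1 at 2270 ± 445, then Mir181a-2, Mir181b-2, Mir181c, Mir181d and Mir181b-1. Each of the first 3 lay apart from the next, while Mir181c overlapped with Mir181d and Mir181d with Mir181b-1. In the proliferating input Mir181a-1 (870 ± 375), Mir181b-1, Mir181b-2 and Mir181c each overlapped with the next, and Mir181a-2 and Mir181d came last. In the proliferating IP Mir181a-1 (1564 ± 214) was followed by Mir181b-2 (663 ± 100), which lay above Mir181b-1 and Mir181a-2, and Mir181c was last. Among the 560 features with a count, Mir181a-1 ranked 119 in the resting input, 86 in the resting IP, 122 in the proliferating input and 104 in the proliferating IP by CPM per kilobase. Mir150, a lymphocyte miRNA, ranked 1 in both resting groups, and Mir155 ranked 1 in the proliferating input. Neither can tell B cells from T cells. In the resting input the myeloid Mir223 ranked 15 and Mir155 ranked 16.

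**Figure D2:**
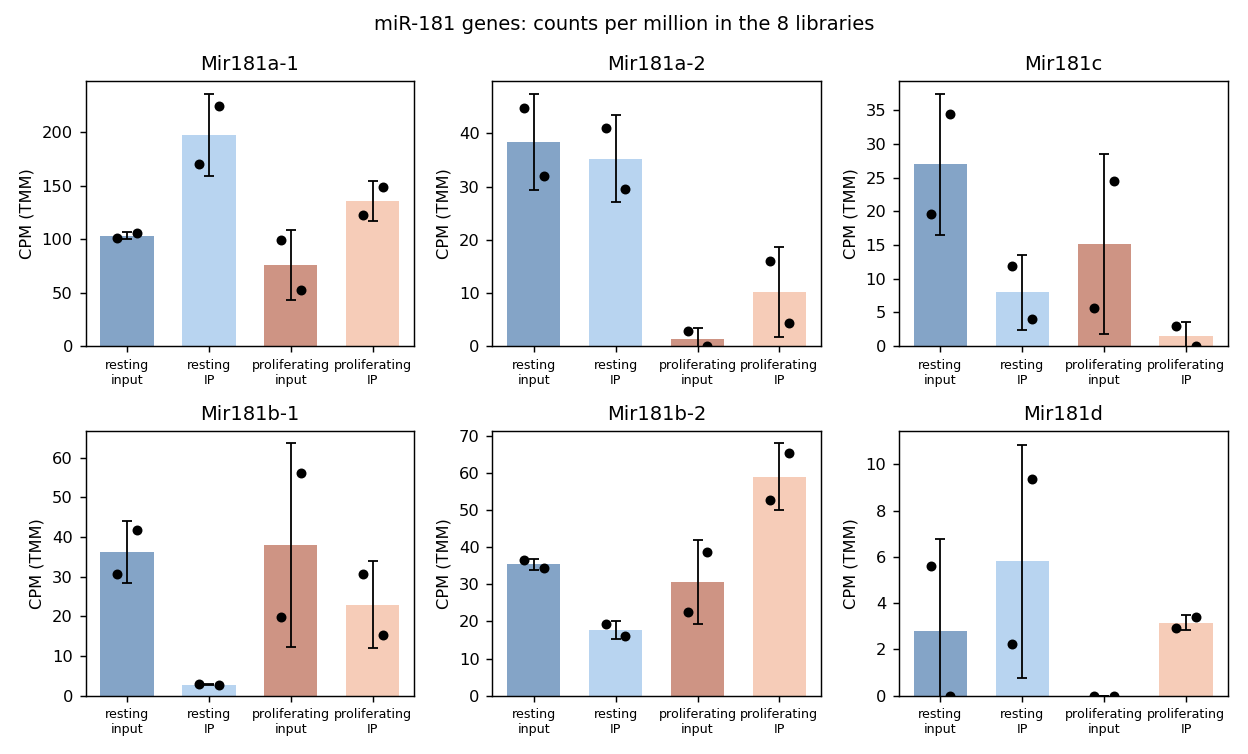
CPM (TMM-scaled) of each miR-181 gene in the 4 groups; bars are means, error bars SD (n = 2) and points the libraries. Mir181b-1 is lowest in the resting IP and Mir181a-2 in the proliferating input, and each panel has its own scale.

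Few members were called as different between groups. With 5 tested members at low counts, a missing call does not show that a member was unchanged. They are also too few to set their calls against the shares of all features. The edgeR quasi-likelihood test ran 2-sided on the 219 features with enough counts, 5 of them members (Mir181d was too low), with Benjamini-Hochberg adjustment over all 219. Between IP and input of resting cells 1 member was called at an adjusted p under 0.05, Mir181b-1, which was lower in the IP, where 28.8% of all tested features were called (13.2% higher and 15.5% lower). In proliferating cells no member was called (edgeR and DESeq2), against 26.9% of all features (13.2% higher and 13.7% lower), and 1 member, Mir181c, had an unadjusted p under 0.05. That background fell from 59 calls to 33 without proliferating input replicate 1, to 30 without replicate 2 and to 37 without proliferating IP replicate 2. Between resting and proliferating cells 1 member was called in the input, Mir181a-2, which was higher in resting cells, against 49.3% of all features (23.3% higher and 26% lower). In the IP 2 were called, Mir181b-1 and Mir181b-2, both lower in resting cells, against 52.1% (23.7% higher and 28.3% lower). No member was called for a difference of IP enrichment between the states by edgeR, or by DESeq2, which gave Mir181c no adjusted p. Of all features 17.4% were called by edgeR (7.76% higher and 9.59% lower), and of the members only Mir181b-1 had an unadjusted p under 0.05 (edgeR). In that comparison the 38 calls fell to 11 and 13 without proliferating input replicate 1 or 2 and to 25 without resting input replicate 1. Cell state coincides with the deposited table, so the state and any difference between the 2 tables cannot be told apart.

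**Figure D3:**
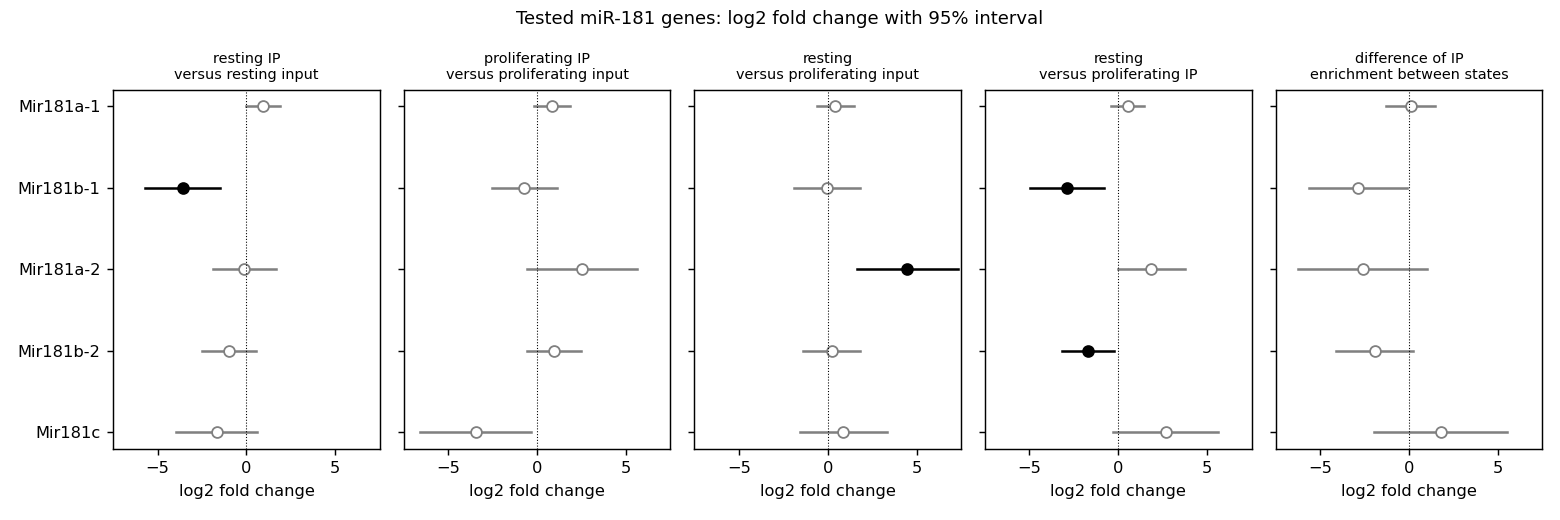
Log2 fold changes of the 5 tested miR-181 genes in the 5 comparisons, with 95% intervals from edgeR; positive is higher in the group named first. Filled points passed an adjusted p of 0.05; values of Mir181a-2 against the proliferating input (1 count) and of Mir181c with the proliferating IP (2 counts) depend on edgeR's prior count.

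Mir181b-1 was lowest in the resting IP. At rest it had 11 and 17 counts in the inputs and 4 and 2 in the IPs. Proliferating cells had 7 and 16 counts in the inputs and 21 and 18 in the IPs. As levels these were 30.8 and 41.7 CPM, 2.99 and 2.68 CPM, 19.8 and 56.1 CPM, and 30.7 and 15.3 CPM. Both resting IP libraries lay below every other library, and the proliferating IP and input overlapped. The fall in the resting IP came to -3.59 on the log2 scale (SE 1.05, 95% interval -5.71 to -1.46, edgeR adjusted p = 0.0075). Over the summed counts, the resting input was 12.7 times as high as the IP, with a 95% counting interval of 5.18 to 37.6. The fall kept its size but not the call without resting input replicate 2 (-3.25, adjusted p = 0.095) or resting IP replicate 1 (-3.73, adjusted p = 0.061).

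In proliferating cells the log2 fold change of Mir181b-1 between IP and input was -0.72 (SE 0.90, 95% interval -2.54 to 1.10, edgeR adjusted p = 0.58). The difference of the IP effect between states was -2.86 (SE 1.37, 95% interval -5.63 to -0.10) and did not pass (edgeR adjusted p = 0.16). Between the states in the IP, Mir181b-1 was lower in resting cells by -2.91 (SE 1.03, 95% interval -4.99 to -0.82, edgeR adjusted p = 0.017). That call was lost in 8 of 15 alternatives, over which the adjusted p ran from 0.015 to 0.14. Among the libraries left out in turn, it held only without proliferating input replicate 1 or proliferating IP replicate 2. In the input the value was -0.041 (95% interval -1.89 to 1.81), an interval that leaves room for a difference in either direction.

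Mir181a-1, its neighbour 97 bases upstream, had no such fall. At rest its levels were 101 and 106 CPM in the inputs and 170 and 225 CPM in the IPs. Proliferating cells had 98.8 and 52.6 CPM in the inputs and 123 and 149 CPM in the IPs. In both states the IP libraries lay above the input libraries. The log2 fold change of IP over input was 0.93 in resting cells (SE 0.47, 95% interval -0.026 to 1.89, edgeR adjusted p = 0.14) and 0.83 in proliferating cells (SE 0.49, 95% interval -0.15 to 1.82, edgeR adjusted p = 0.23), neither past the threshold. Single libraries moved both values. Without proliferating input replicate 1 or 2, the resting value became 1.17 and 1.18 and passed (edgeR adjusted p = 0.046 and 0.0489), and without resting IP replicate 2 it became 0.48 (edgeR adjusted p = 0.58). The proliferating value became 1.28 without proliferating input replicate 1 (edgeR adjusted p = 0.15) and 0.11 without replicate 2 (edgeR adjusted p = 0.93). With library totals it was 0.23, or 0.73 above the median of all features, against 0.72 with TMM. Between the states the values were 0.43 in the input and 0.53 in the IP, which did not pass (edgeR adjusted p = 0.48 and 0.32). Upper-quartile factors brought the latter to 1.21 (edgeR adjusted p = 0.030), and leaving out proliferating input replicate 2 brought it to 0.99 (edgeR adjusted p = 0.0493).

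Mir181a-2 was lowest in the proliferating input. At rest it had 16 and 13 counts in the inputs and 55 and 22 in the IPs. Proliferating cells had 1 and 0 counts in the inputs and 11 and 5 in the IPs. In CPM these were 44.8 and 31.9, 41.0 and 29.4, 2.82 and 0, and 16.1 and 4.24. Every resting library lay above every proliferating library. In the input the resting cells were higher (edgeR adjusted p = 0.0083), and the ratio of the summed counts was 24.3, with a 95% counting interval of 4.02 to 991 because of the single count. Without proliferating input replicate 2, the replicate at 0, the call was lost (edgeR adjusted p = 0.092). In the IP the log2 fold change of resting over proliferating cells was 1.86 (SE 0.92, 95% interval -0.0065 to 3.72) and did not pass (edgeR adjusted p = 0.084), though it did in 4 of 15 alternatives, of which without proliferating input replicate 1 or 2 it was 2.15 and 2.22 (edgeR adjusted p = 0.047 and 0.0498). It was 2.97 without proliferating IP replicate 1 (edgeR adjusted p = 0.086) and 1.25 without replicate 2 (edgeR adjusted p = 0.39). IP and input of resting cells overlapped (log2 fold change -0.11, 95% interval -1.88 to 1.66, edgeR adjusted p = 0.93), a value that turned to 0.055 with upper-quartile factors. In proliferating cells the IP held 5.49 times the input level, with a 95% counting interval of 0.853 to 230 (edgeR adjusted p = 0.25).

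Mir181b-2 had its highest level in the proliferating IP. At rest the levels were 36.4 and 34.4 CPM in the inputs and 19.4 and 16.1 CPM in the IPs. Proliferating cells had 22.6 and 38.6 CPM in the inputs and 52.7 and 65.3 CPM in the IPs. Both resting IP libraries were below the resting inputs, and both proliferating IP libraries above the proliferating inputs. Neither step passed, at -0.98 in resting cells (95% interval -2.51 to 0.55, edgeR adjusted p = 0.34) and 0.96 in proliferating cells (95% interval -0.56 to 2.48, edgeR adjusted p = 0.39), and their difference of -1.94 had an adjusted p of 0.22 (edgeR). Within the IP Mir181b-2 was lower in resting cells by -1.72 (SE 0.72, 95% interval -3.18 to -0.26, edgeR adjusted p = 0.044). This call was lost without any 1 of the 8 libraries, at values from -1.90 to -1.29 (edgeR adjusted p from 0.062 to 0.22). It was also lost with the replicate number as a block (-1.70, edgeR adjusted p = 0.067). Input levels of the states overlapped (0.22, edgeR adjusted p = 0.81).

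Scaling moved the comparison of IPs for all features alike. The median log2 fold change of resting over proliferating IP over the 219 features was -0.21 with TMM and 0.45 with upper-quartile factors, a shift of 0.67. Relative to that median, Mir181b-1 was at -2.69 with TMM and -2.76 with upper-quartile factors, Mir181b-2 at -1.50 with both, and Mir181a-2 at 2.07 and 2.01. A common shift cancels when the median is subtracted, so values relative to a median cannot test the calls. With upper-quartile factors Mir181b-1 and Mir181b-2 did not pass (edgeR adjusted p = 0.066 and 0.20), and Mir181a-2 did (edgeR adjusted p = 0.033). The median of resting over proliferating input shifted by 0.36 with upper-quartile factors and by -0.36 with library totals, and Mir181a-2 stayed between 4.49 and 4.56 above it. The size of these Mir181a-2 values depends on edgeR's prior count, since the proliferating inputs held 1 count. For resting IP over input the largest shift was -0.24, with library totals, and Mir181b-1 lay from -3.58 to -3.53 relative to the median under the 4 scalings.

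Mir181c and Mir181d were near the limit of counting. At rest Mir181c had 7 and 14 counts in the inputs and 16 and 3 in the IPs, or 19.6 and 34.4 CPM against 11.9 and 4.02 CPM. Proliferating cells had 2 and 7 counts in the inputs and 2 and 0 in the IPs, or 5.64 and 24.6 CPM against 2.93 and 0 CPM. In each state both inputs lay above both IPs. The log2 fold change of IP over input was -1.68 in resting cells (SE 1.13, 95% interval -3.97 to 0.61, edgeR adjusted p = 0.27). In proliferating cells the input was 13.1 times as high as the IP over the summed counts (95% counting interval 2.71 to 125), and the test did not pass (edgeR adjusted p = 0.095), except with library totals (edgeR adjusted p = 0.0499). Between states Mir181c had adjusted p-values of 0.55 in the input and 0.12 in the IP (edgeR). Mir181d had 2 and 0 counts in the inputs and 3 and 7 in the IPs at rest, and 0 and 0 against 2 and 4 in proliferating cells. A count of 0 in the proliferating inputs allows up to 10.9 and 14.1 CPM of the library totals. The highest TMM-scaled level in any library was 9.37 CPM, in resting IP replicate 2. No fold was given against the proliferating input. The resting IP held 1.83 times the resting input level (95% counting interval 0.390 to 17.2) and 1.49 times the proliferating IP level (0.490 to 4.98). Mir181d was not tested, and without the filter on low counts its lowest adjusted p over the 5 comparisons was 0.66 (edgeR).

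Within a cluster, shares do not depend on scaling between libraries. Of the counts of Mir181a-1 and Mir181b-1 together, Mir181a-1 made up 76.6% (62.0 to 87.7, exact 95% interval) and 71.7% (58.6 to 82.5) of those in resting input. In resting IP it made up 98.3% (95.6 to 99.5) and 98.8% (95.8 to 99.9), above the intervals of both inputs. The proliferating inputs were wide apart, at 83.3% (68.6 to 93.0) and 48.4% (30.2 to 66.9), and the proliferating IPs had 80% (71.1 to 87.2) and 90.7% (85.7 to 94.4). The resting IP was thus the group in which the 2 genes of chromosome 1 were farthest apart in counts, at 396 against 6.

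The shares of the pair on chromosome 2 separated by cell state. At rest Mir181a-2 took 55.2% (35.7 to 73.6) and 48.1% (28.7 to 68.1) of the pair's counts in the inputs and 67.9% (56.6 to 77.8) and 64.7% (46.5 to 80.3) in the IPs. Proliferating cells had 11.1% (0.281 to 48.2) and 0% (0 to 28.5) in the inputs, and in the IPs 23.4% (12.3 to 38.0) and 6.10% (2.01 to 13.7). All 4 resting libraries were above all 4 proliferating ones. On chromosome 8, Mir181c took 21 of 23 counts in the resting inputs and 9 of 9 in the proliferating inputs, against 19 of 29 in the resting IPs and 2 of 8 in the proliferating IPs. The resting IPs of that pair disagreed, at 84.2% (60.4 to 96.6) and 30% (6.67 to 65.2). These shares have 2 libraries a group and were not tested.

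**Figure D4:**
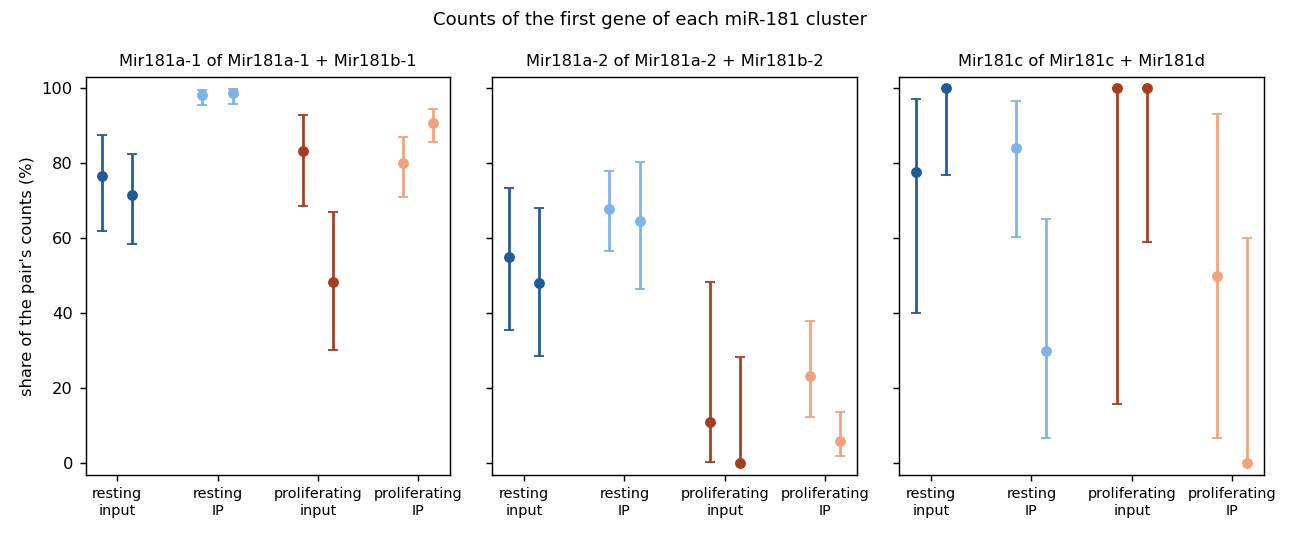
Share (%) of the first gene in the counts of each cluster pair, 1 point per library in the 4 groups, with exact 95% intervals for counting error. Mir181a-1 exceeds 98% in both resting IPs, and Mir181a-2 is at 48.1% or more in resting and at 23.4% or less in proliferating libraries.

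Genes outside the family can also share a mature sequence between copies. Of 90 such features, 37 had a count and 19 were tested. In resting cells 4 of the 19 were higher in the IP and 1 was lower, beside 13.2% higher and 15.5% lower of all features. Their median log2 fold change was 0.36 against -0.054 for all 219 features. Mir92-1 and Mir92-2, the copies of miR-92a, were higher in the IP by 1.61 and 1.81, and Mirlet7f-2 by 1.69, while Mir7-1 stood at -0.33 (edgeR adjusted p = 0.43). Of the 19, 3 were higher and 2 lower in the proliferating IP than in its input, beside 13.2% and 13.7% of all features (median 0.026, against 0.11 for all features). Between the states 3 were higher and 4 lower in resting input (all features 23.3% and 26%), and 5 higher and 6 lower in resting IP (all features 23.7% and 28.3%).

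Of 17 miRNA genes known in lymphocyte development besides miR-181, 14 were tested. In the input 3 were higher and 8 lower in resting cells, beside 23.3% and 26% of all features, with a median log2 fold change of -0.87 against -0.041 for all features. In the IP the counts were also 3 and 8, beside 23.7% and 28.3%, with a median of -1.33 against -0.21. Each listed gene was counted singly. Listed genes from the same cluster may change together, so the counts and medians of this list need not reflect independent genes. Mir223, used below as a myeloid marker, is also on this list. It was among the 3 higher in resting cells in both, by 3.18 in the input and 4.59 in the IP. The listed Mir150, which restrains the transcription factor Myb, was higher by 3.54 and 2.77, and Mir155, induced on B cell activation, stood at -3.37 and -3.65 in resting over proliferating input and IP. Mir146, a feedback inhibitor of NF-kappaB signalling, did not pass in either (-0.44 and 0.24, edgeR adjusted p = 0.091 and 0.35). Mir21a fell by 0.58 in resting input (edgeR adjusted p = 0.028) and did not pass between the IPs (-0.46, edgeR adjusted p = 0.072). Between IP and input 5 of the 14 were higher and 3 lower in resting cells (all features 13.2% and 15.5%), and 5 higher and 2 lower in proliferating cells (13.2% and 13.7%).

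miRNAs of other cell types differed in both directions between the states. Of 15 listed myeloid, erythroid, endothelial, hepatocyte, epithelial and stromal genes, 13 were in the tables under their listed names (Mir451a and Mir145 were not matched). Their summed level ran from 13203 to 28655 CPM in resting input and from 21139 to 33618 CPM in resting IP. In proliferating cells it ran from 2760 to 3788 CPM in the inputs and from 2327 to 3833 CPM in the IPs. Most of it in the resting groups was the myeloid Mir223, at 19348 ± 10982 CPM in the resting input (n = 2), while Mir486 was at 0 in both IP groups, Mir143 in both proliferating groups and Mir145a in both IP groups. Of the 10 tested, 4 were higher and 2 lower in resting input, beside 23.3% higher and 26% lower of all features. In resting IP 8 were higher and 1 lower, beside 23.7% and 28.3% of all features. Listed genes from the same cluster may change together here as well. The endothelial Mir126a was lower in resting cells, by -1.41 in the input and -3.74 in the IP (log2 fold change). Their part in the levels of Mir181a-2, Mir181b-1 and Mir181b-2 was not tested, and fewer cells of a type cannot be told apart from less RNA per cell.

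The tested features with the pattern most like a member were found by the root mean square difference of log2 CPM, centred over the 8 libraries, which share 4 groups and their depths. For Mir181a-1 these were Mir16-2 (0.34), Mir342 (0.37) and Mir22 (0.38), against a median of 1.20 over the 218 other features. For Mir181b-1 they were Mir27a (0.68), Mir210 (0.70) and Mir301 (0.71), against a median of 1.54. Mir181a-2 was nearest to Mir6957 (0.37), Mir455 (0.58) and Mir140 (0.72), with a median of 1.69. Mir181b-2 was nearest to Mir700 (0.38), Mir101b (0.42) and Mir301 (0.48), with a median of 1.17, and Mir181c to Mir29b-2 (0.69), Mir6239 (0.73) and Mir30a (0.76), with a median of 1.55. Mir181a-2 and Mir6957 had the same mean log2 CPM in the proliferating input, 2.06, a value that depends on the prior count of 2. Nearness at such low counts, also for Mir181c, thus depends in part on the prior count. No member was among the 3 nearest of another. Mir181b-1 stood at place 184 from its neighbour Mir181a-1, and Mir181a-1 at place 151 from Mir181b-1 (1.71). Mir181b-2 was at place 116 from Mir181a-2, and Mir181a-2 at place 187 from Mir181b-2 (1.73), while Mir181b-2 was at place 15 from Mir181b-1 and Mir181b-1 at place 63 from Mir181b-2 (0.93).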

How the data were processed

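The deposited tables hold raw counts of reads per miRNA gene from QIAseq small RNA libraries of 8 samples, 1 table per cell state, and their columns name deduplicated alignments, per the file headers. STAR 2.7.9a, SAMtools 1.15 and mm10 are named in the submitters' processing notes; the counter, strand setting and deduplication method, like multi-mapping, were not given in the sources used here. Features were named by exact coordinates in RefSeq (GRCm38.p6), which named 1179 of 2202. Groups and replicate numbers came from the titles.

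Features were kept by filterByExpr with a minimum count of 10. edgeR 4.0.16 in R 4.3.3 fitted 4 groups to all 8 libraries with TMM factors (0.797 to 1.34) and 4 residual degrees of freedom beside 36.6 prior ones. SE is the absolute log2 fold change over the square root of F, and 95% intervals use the total degrees of freedom. Intervals of shares and count ratios are exact (Clopper-Pearson). DESeq2 1.42.0 was an alternative, and the fit was tested on simulated data. The rule named all 6 members, the 3 features nearest to each, Mir150, Mir155 and Mir223, and up to 4 members of each list. The members and lists were chosen with earlier results of these data known.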

Additional observations from a re-analysis of the deposited data

How the results depend on the processing

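Low counts limit the members, and with a minimum count of 50 only Mir181a-1 was tested. Alternatives were upper-quartile, DESeq2 and no scaling factors, no filter, a minimum count of 50, DESeq2, a replicate block, the compared groups alone and each library left out. Outside the leave-one-out fits, 22 of 28 alternatives of the 4 called member results kept direction and call. The call of Mir181b-1 between IPs was lost with upper-quartile factors (-2.31) and no filter (-2.73). That of Mir181b-2 was lost with upper-quartile factors (-1.05), no filter (-1.52), DESeq2 (-1.59) and the replicate block (-1.70). The cause was not tested. Directions of uncalled values turned for Mir181a-2 between resting IP and input (0.055, upper-quartile factors) and, between the inputs, for Mir181b-1 (0.33, upper-quartile factors) and Mir181b-2 (-0.13, library totals). With 1 library left out, values ran from -3.76 to -3.25 for Mir181b-1 in resting IP against input, from -3.22 to -2.38 for Mir181b-1 and from -1.90 to -1.29 for Mir181b-2 between the IPs, and from 3.55 to 7.74 for Mir181a-2 between the inputs. The 7.74 came without proliferating input replicate 1, which leaves Mir181a-2 at 0 counts in that group, so its size depends on edgeR's prior count. Uncalled values that turned then ran from -0.45 to 0.33 (Mir181a-2, resting IP against input), from -0.073 to 0.97 (Mir181a-1), from -0.62 to 0.74 (Mir181b-1) and from -0.12 to 0.51 (Mir181b-2) between the inputs, and from -0.41 to 1.06 (Mir181a-1, difference of IP enrichment). Calls over all features ran from 30 to 63 in proliferating IP against input and from 11 to 46 for the difference of enrichment, which had 25 with DESeq2 size factors and 22 with upper-quartile factors. A left-out library leaves its group with 1, assumed to vary like the others. Deviations of same-numbered libraries correlated from -0.12 to 0.18 over 6 pairs of groups. With 2 libraries a group and low counts, this cannot show whether same-numbered libraries share cells. Apart from Mir181b-2 between the IPs, the replicate block changed no member call.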
